A study of Mus musculus with 4 samples.

Results

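Potassium channel genes were examined in RNA of mouse pancreatic islets, the clusters of hormone-secreting cells of the pancreas. The members were chosen by symbol. They are all genes whose symbol starts with Kcn and a further letter, except 3 genes with that pattern, among them those for the pore of the ATP-sensitive channel. This left 96 of the 55536 genes in the table, 92 of them protein coding and 4 of them RNAs transcribed from the strand opposite to a channel gene. By the letters after Kcn they fell into 22 subfamilies or groups.

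Potassium channels let potassium leave the cell and so hold the membrane potential negative or bring it back after an action potential. In beta cells the ATP-sensitive channel closes when glucose is metabolised, calcium channels open and insulin is released, and voltage-gated and calcium-activated potassium channels then end each action potential. Background (leak) potassium channels set how easily the cell depolarises. Most pores are assembled from several subunits, and auxiliary subunits change how fast a pore opens, closes or inactivates without conducting ions themselves.

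Islets came from male C57BL/6 mice aged 8 weeks, and bulk libraries were made from polyadenylated RNA with a KAPA mRNA kit. Insulin-depleted libraries (n = 2) had been treated with a DepleteX insulin panel of Jumpcode Genomics within the library preparation, and non-depleted libraries (n = 2) had not. Strain, sex, age and tissue were the same in both groups. The table's headers add to the non-depleted libraries alone a tag that reads as size selection, so depletion and size selection cannot be told apart. The labels call the replicates biological but do not say whether they came from separate mice. The headers of both groups also share a further tag whose meaning is not stated, so whether the replicates share a source is not known. The p-values thus measure only the spread between these libraries, and how much of it is technical is not known.

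A gene's level is its count relative to all counts of the library apart from those of Ins1 and Ins2, the genes that encode insulin, in CPM (counts per 1e6 counts). Insulin-depleted replicates 1 and 2 held 19316173 and 65030111 counts, and non-depleted replicates 1 and 2 held 50605417 and 60528485. Ins1 and Ins2 together took 0.195% and 0.264% of the counts in the insulin-depleted libraries, against 4.14% and 3.97% in the non-depleted libraries. Ins1 and Ins2 were the only 2 genes called at an adjusted p under 0.05 by edgeR's quasi-likelihood test, with log2 fold changes of -6.52 (SE 0.19) and -3.87 (SE 0.17), insulin-depleted over non-depleted. Iapp, the beta-cell peptide amylin, stood at 18445 and 17551 CPM in insulin-depleted libraries, against 18761 and 17396 CPM in non-depleted libraries. Pnlip, the pancreatic lipase of acinar cells, stood at 2713 and 1017 CPM in insulin-depleted libraries, against 2676 and 1013 CPM in non-depleted libraries, so exocrine RNA was present in all 4 and was higher in replicate 1 of both groups.

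Pore-forming members carry a short signature that lines the selectivity filter, the narrowest part of the pore. It was searched as 5 codons in frame: threonine or serine, any residue, glycine, tyrosine or phenylalanine, glycine. All 75 pore-forming members with a complete coding sequence in the GENCODE M21 transcripts (build GRCm38) held it, as did 0 of 17 auxiliary and regulator members and 574 of 21583 protein-coding genes (2.66%). Of the 14 K2P (tandem-pore) genes, whose subunits have a pair of pore loops, 11 held at least 2 copies, against 0 of the 61 other pore-forming members. The stretches below are 45 bases long, with the 5 signature codons in capitals, and belong to members that lead their subfamily per kb. The paralog Kcnh6 is shown beside Kcnh2, so that the closeness of copies can be read base by base.
Kcnk16 copy 1: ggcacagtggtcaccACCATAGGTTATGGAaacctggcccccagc
Kcnk16 copy 2: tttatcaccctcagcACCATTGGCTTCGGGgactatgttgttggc
Kcnh2: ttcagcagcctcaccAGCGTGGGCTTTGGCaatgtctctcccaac
Kcnh6: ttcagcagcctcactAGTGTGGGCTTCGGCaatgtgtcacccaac
Kcnma1: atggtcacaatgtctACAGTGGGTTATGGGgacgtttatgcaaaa
Kcnn3: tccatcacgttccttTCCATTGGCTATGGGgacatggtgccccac
Kcnj2: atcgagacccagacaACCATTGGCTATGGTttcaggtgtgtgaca

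These stretches lie at chr5:24325540-24325584 on the minus strand for Kcnh2 and chr11:106019061-106019105 on the plus strand for Kcnh6. For Kcnma1 the stretch is at chr14:23528398-23528442 on the minus strand, for Kcnn3 at chr3:89645497-89645541 on the plus strand and for Kcnj2 at chr11:111072192-111072236 on the plus strand, each within 1 coding exon. The position of the Kcnk16 copies is that of the gene, chr14:20261376-20269199 on the minus strand. Kcnh2 and Kcnh6 shared 40 of the 45 bases, and 13 of the 15 signature bases, whereas the 2 copies within Kcnk16 shared 20 of 45. The fourth signature codon was for phenylalanine in 8 of 8 Kcnh genes and in 11 of 11 second K2P copies, and for tyrosine in 13 of 13 Kcnj genes and 4 of 4 Kcnn genes. Sequence similarity may bear on the counts, since how reads that map to several places were treated is not given in the sources used here. Whether it did was not tested.

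Potassium channel genes together held 1347 and 1504 CPM in insulin-depleted replicates 1 and 2, against 1348 and 1504 CPM in non-depleted replicates 1 and 2. The group means were 1425 ± 111 CPM in insulin-depleted libraries and 1426 ± 110 CPM in non-depleted libraries (SD, n = 2 each), a ratio of 1.00. The 2 libraries of a group thus differed from each other more than the groups did, and the groups overlapped. In each library this was 0.135% to 0.150% of the counts outside the insulin genes.

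Of the 96 members, 51 reached 1 CPM in every library, 29 averaged at least 5 CPM, 14 reached 30 CPM in every library and 9 reached 50 CPM in every library. A further 11 members had 0 counts in all 4 libraries, where 3 counts would have been 0.156 and 0.0463 CPM in insulin-depleted replicates 1 and 2 and 0.0618 and 0.0516 CPM in non-depleted replicates 1 and 2. These were the voltage-gated Kcna7 and Kcna10, the silent voltage-gated subunits Kcng4, Kcns2 and Kcnv1, and the K2P genes Kcnk4 and Kcnk18. The others were the auxiliary genes Kcnmb3 and Kcne1l, and 2 opposite-strand RNAs, Kcnd3os and Kcnmb4os1. The remaining 34 members had counts but fell under 1 CPM in at least 1 library.

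To rank genes against each other, CPM was divided by the merged exon length in kilobases. Kcnk16, which encodes the alkaline-activated K2P channel TALK-1, ranked first with 55.7 and 76.4 CPM per kb in insulin-depleted libraries, against 55.3 and 78.2 CPM per kb in non-depleted libraries. Kcnmb2, the auxiliary beta-2 subunit that gives BK channels inactivation, came next with 38.6 and 39.3 CPM per kb in insulin-depleted libraries, against 41.0 and 37.5 CPM per kb in non-depleted libraries. Its range over the 4 libraries did not overlap that of Kcnk16 above it nor that of Kcnh2 below it. Kcnh2, the voltage-gated channel Erg1, had 14.8 and 21.04 CPM per kb in insulin-depleted libraries, against 14.9 and 20.5 CPM per kb in non-depleted libraries. Kcnh2 overlapped the next gene, Kcnip1. Further down, pairs of neighbours whose ranges did not overlap included Kcnh6 and Kcnk3, Kcnj6 and Kcnab3, and Kcnab3 and Kcnk5. Kcnk16 alone made up 19.6% to 24.3% of the members' summed level per kb, and the first 5 genes made up 50.8% to 52.8%.

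**Figure D1:**
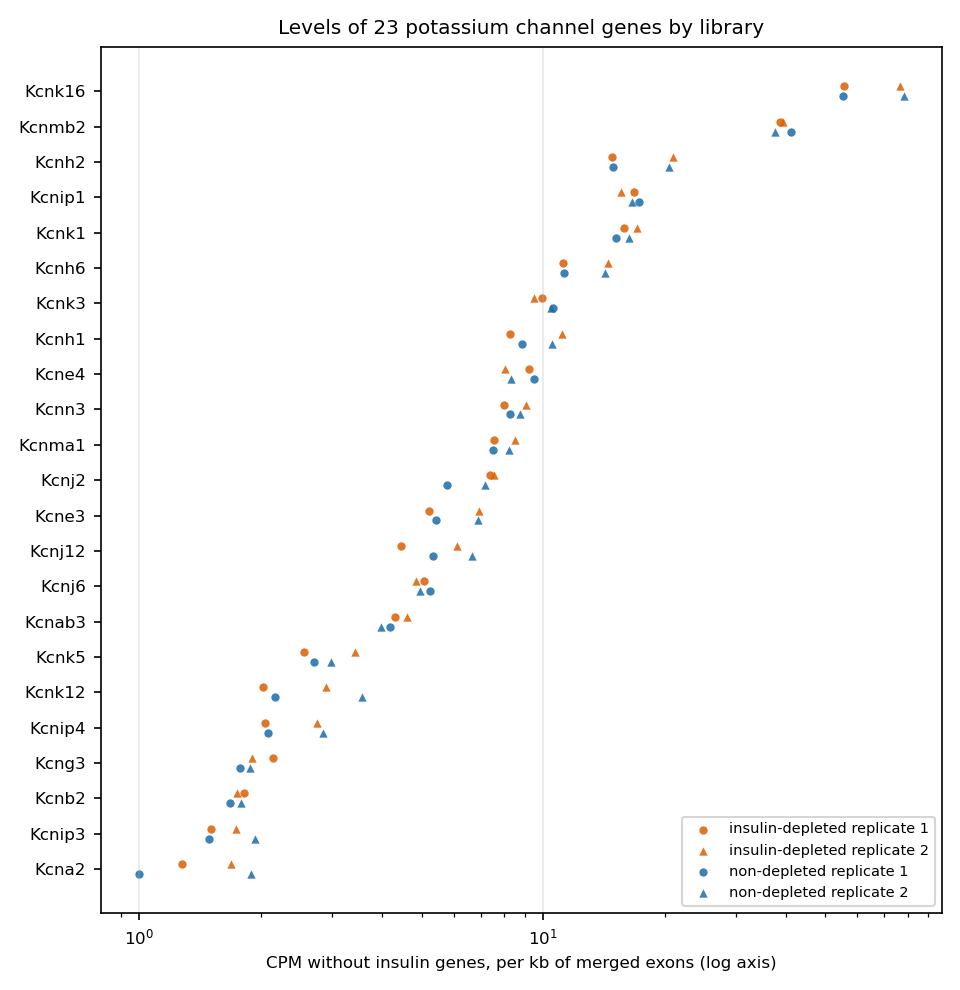
Level of 23 of the leading potassium channel genes in each library, as CPM per kb of merged exons on a log axis, with genes down the page in order of their mean level. Kcnk16 and Kcnmb2 stand apart at the top, and the insulin-depleted and non-depleted points of a gene lie together, with gaps between replicates 1 and 2 that recur in both groups in Kcnk16, Kcnh2 and Kcnk12.

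Among background channels, the K2P subfamily summed to 87.8 and 111 CPM per kb in insulin-depleted libraries, against 87.6 and 113 CPM per kb in non-depleted libraries, the highest sum of any subfamily. Kcnk16 made up 66.4% of it. In CPM, Kcnk16 stood at 132 and 182 in insulin-depleted libraries, against 131 and 186 in non-depleted libraries. Replicate 1 was the lower library in both groups and the groups overlapped. Kcnk1, the weakly rectifying TWIK-1, had 35.5 and 38.1 CPM in insulin-depleted libraries, against 33.8 and 36.4 CPM in non-depleted libraries. Kcnk3, the acid-sensitive TASK-1, had 39.5 and 37.7 CPM in insulin-depleted libraries, against 42.1 and 41.7 CPM in non-depleted libraries, and here both insulin-depleted values were the lower ones. Per kb, Kcnk16 was 5.21 to 8.05 times as high as Kcnk3 over the 4 libraries. The stretch-activated Kcnk2 (TREK-1) and Kcnk10 (TREK-2), both on a list of islet channels known from textbooks, were far lower. Kcnk2 had 1.56 and 0.987 CPM in insulin-depleted libraries, against 1.15 and 0.981 CPM in non-depleted libraries. Kcnk10 had 1.35 and 1.73 CPM in insulin-depleted libraries, against 1.92 and 1.58 CPM in non-depleted libraries.

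Voltage-gated pore genes, 30 in number, summed to 481 and 558 CPM in insulin-depleted libraries, against 474 and 561 CPM in non-depleted libraries. Kcnb2, a voltage-gated pore gene known from islets, had 27.5 and 26.4 CPM in insulin-depleted libraries, against 25.5 and 27.1 CPM in non-depleted libraries, and the groups overlapped. The Kcnh subfamily (Eag, Erg and Elk channels) was the second highest by mean sum per kb, with 36.1 and 48.6 in insulin-depleted libraries, against 37.0 and 47.8 in non-depleted libraries. The BK beta subunits had 39.7 and 40.5 in insulin-depleted libraries, against 42.1 and 38.3 in non-depleted libraries. They thus stood above the Kcnh genes in replicate 1 of both groups and below them in replicate 2. In CPM, Kcnh2 had 71.6 and 102 in insulin-depleted libraries, against 72.0 and 99.5 in non-depleted libraries. Kcnh6, the paralog Erg2, had 39.8 and 51.5 CPM in insulin-depleted libraries, against 40.0 and 50.6 CPM in non-depleted libraries. In Kcnh2 and Kcnh6 alike, replicate 1 of both groups was low and replicate 2 of both groups was high. Kcnh1, the channel Eag1, stood at 60.6 and 81.5 CPM in insulin-depleted libraries, against 65.1 and 77.2 CPM in non-depleted libraries.

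Kcna2 (Kv1.2) led the Kv1 genes with 15.1 and 20.1 CPM in insulin-depleted libraries, against 11.9 and 22.5 CPM in non-depleted libraries. The Kv1 gene Kcna6 was lower, at 3.53 and 2.88 CPM in insulin-depleted libraries, against 3.55 and 3.58 CPM in non-depleted libraries, and 39.6% of its exon length overlaps another gene, where the strand setting of the counts, which is not known, would matter. Kv4 (A-type) genes were low. Their lead, Kcnd1, had 3.89 and 4.26 CPM in insulin-depleted libraries, against 3.69 and 4.73 CPM in non-depleted libraries. Kcnd3 stayed under 1 CPM in every library, at 0.830 and 0.925 CPM in insulin-depleted libraries, against 0.866 and 0.895 CPM in non-depleted libraries. Kcnc1 (Kv3.1) had 1.24 and 1.37 CPM in insulin-depleted libraries, against 1.24 and 1.58 CPM in non-depleted libraries. Kcnq1, a voltage-gated pore gene known to pair with Kcne subunits, had 4.67 and 3.56 CPM in insulin-depleted libraries, against 4.33 and 3.23 CPM in non-depleted libraries, and was higher in replicate 1 of each group.

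Silent voltage-gated subunits do not conduct alone and modify Kv2 channels. The 10 such genes summed to 12.4 and 9.79 CPM in insulin-depleted libraries, against 11.4 and 9.50 CPM in non-depleted libraries. Kcng3 (Kv6.3) was the leading one, with 7.21 and 6.38 CPM in insulin-depleted libraries, against 5.96 and 6.30 CPM in non-depleted libraries, so its insulin-depleted values were both the higher ones by a small margin. Kcnf1 (Kv5.1) had 4.25 and 2.44 CPM in insulin-depleted libraries, against 4.70 and 2.10 CPM in non-depleted libraries. Kcns3 (Kv9.3) stayed under 1 CPM in every library, and Kcng2 (Kv6.2) had counts in 1 insulin-depleted library alone, at a level near the 3-count limit.

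Calcium-activated channels open when calcium enters during the action potential. Kcnma1, the pore of the large-conductance BK channel, had 128 and 144 CPM in insulin-depleted libraries, against 128 and 139.7 CPM in non-depleted libraries. Kcnn3, the small-conductance channel SK3, had 83.5 and 94.8 CPM in insulin-depleted libraries, against 86.6 and 91.6 CPM in non-depleted libraries. Kcnn4, the intermediate-conductance channel, had 2.80 and 2.02 CPM in insulin-depleted libraries, against 2.76 and 1.86 CPM in non-depleted libraries. Groups overlapped for all 3, and per kb Kcnn3 made up 84.0% of its subfamily. Kcnu1, the related channel Slo3 best known from sperm, had 2.49 and 3.19 CPM in insulin-depleted libraries, against 2.23 and 3.03 CPM in non-depleted libraries.

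Inward rectifiers pass current best near the resting potential and hold it there. The 13 Kcnj members summed to 104 and 104 CPM in insulin-depleted libraries, against 96.6 and 104 CPM in non-depleted libraries. Kcnj2 (Kir2.1) had 40.2 and 41.2 CPM in insulin-depleted libraries, against 31.4 and 39.0 CPM in non-depleted libraries. The groups did not overlap, and the lowest value was that of non-depleted replicate 1. Kcnj6, the G-protein-gated GIRK2, had 38.6 and 37.0 CPM in insulin-depleted libraries, against 40.0 and 37.9 CPM in non-depleted libraries. Kcnj12 (Kir2.2), which shared 35 of 45 pore bases with Kcnj2, had 12.2 and 16.8 CPM in insulin-depleted libraries, against 14.7 and 18.3 CPM in non-depleted libraries. Kcnj5 (GIRK4) had 1.14 and 0.678 CPM in insulin-depleted libraries, against 1.48 and 0.241 CPM in non-depleted libraries, and the widest gap was within the non-depleted group. Its log2 fold change was 0.03 by edgeR, and 1.88 without non-depleted replicate 1.

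**Figure D2:**
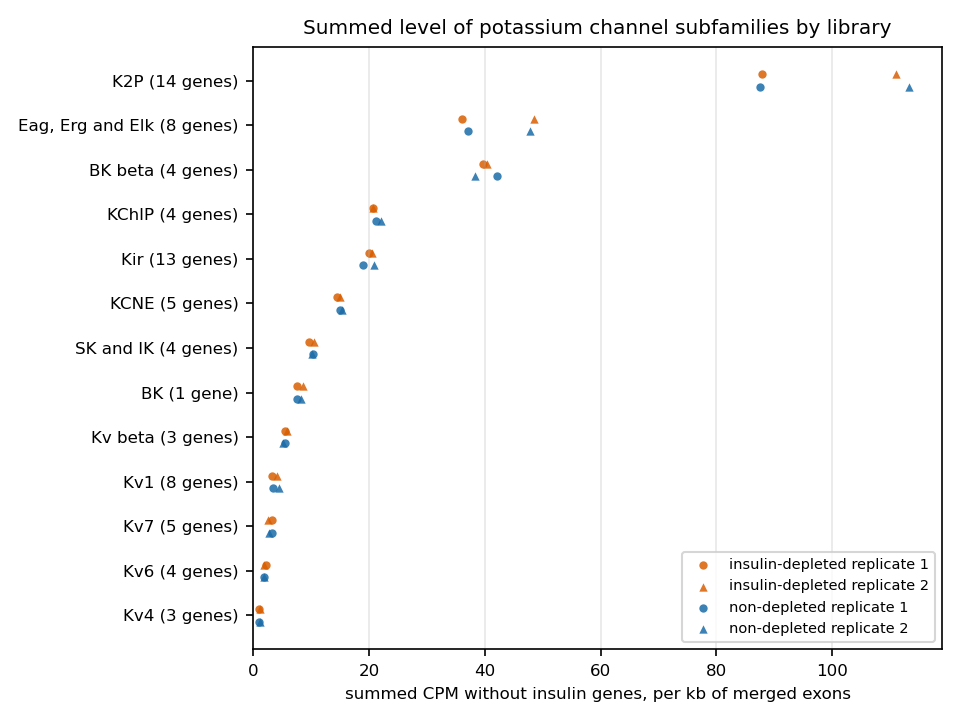
Summed level of 13 subfamilies in each library, as CPM per kb of merged exons on a linear axis, with subfamilies down the page in order of their mean sum. The K2P genes are highest at 87.6 to 113 CPM per kb, followed in mean sum by the Kcnh genes (Eag, Erg and Elk) and the BK beta subunits. In the first 2 subfamilies replicate 1 of both groups lies below replicate 2, and in replicate 1 the BK beta subunits lie above the Kcnh genes.

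Auxiliary genes with 16 members made up 297 and 297 CPM in insulin-depleted libraries, against 308 and 296 CPM in non-depleted libraries. In CPM, Kcnmb2 had 121 and 123 in insulin-depleted libraries, against 128 and 117 in non-depleted libraries. It made up 97.4% of the BK beta subunit sum per kb and was 4.56 to 5.46 times as high per kb as the BK pore gene Kcnma1, or 3.48 to 4.17 times when the longest annotated transcript served as the length. Kcnmb1, the beta-1 subunit known from smooth muscle, had 4.10 and 4.22 CPM in insulin-depleted libraries, against 3.42 and 2.79 CPM in non-depleted libraries, with both insulin-depleted values the higher ones. Kcnmb4, the beta-4 subunit, stayed under 1 CPM in every library. Kcnip1 (KChIP1), a calcium-binding partner of Kv4 pores, had 104 and 96.9 CPM in insulin-depleted libraries, against 107 and 103 CPM in non-depleted libraries. The 4 KChIP genes together were 18.2 to 21.9 times as high per kb as the 3 Kv4 pore genes. With the longest annotated transcript as the length, this ratio was 26.2 to 31.7. Kcne4 and Kcne3, single-span subunits known to alter Kv7 channels, led the Kcne genes. Kcne4 had 24.5 and 21.4 CPM in insulin-depleted libraries, against 25.2 and 22.1 CPM in non-depleted libraries. Kcne3 had 9.28 and 12.3 CPM in insulin-depleted libraries, against 9.67 and 12.3 CPM in non-depleted libraries, so Kcne4 was high in replicate 1 of each group and Kcne3 was low there. Kcnab3, a cytoplasmic beta subunit of Kv1 channels, had 12.3 and 13.2 CPM in insulin-depleted libraries, against 11.98 and 11.3 CPM in non-depleted libraries.

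The question the design sets is whether the insulin depletion step left other transcripts at their level. Among potassium channel genes, 72 of 96 passed the filter on low counts and 24 did not, 13 of these 24 with counts in at least 1 library. Of the 72, 0 were called higher and 0 lower in insulin-depleted libraries by edgeR at an adjusted p under 0.05, where over all 19723 genes tested 0% were called higher and 0.0101% lower. At an unadjusted p under 0.05 the count of members was also 0, by edgeR, DESeq2 and limma-voom alike, and their smallest adjusted p by edgeR was 1.00. Such p were rare over all genes too: of the 19721 genes other than the insulin genes, 36 were higher and 44 lower by edgeR. DESeq2 gave 12 higher and 13 lower, and limma-voom 59 and 58, so a count of 0 among 72 members is near the background. These fits on group alone count the gap between replicates as error, so a count of 0 cannot show that small differences are absent. With the replicate number as a block, edgeR gave an unadjusted p under 0.05 to 2 members higher and 1 lower. Over the genes other than the insulin genes, that fit gave 359 higher and 492 lower. Fold changes of members above 0 numbered 32 and below 0 numbered 40. Their median log2 fold change was -0.02, against a median of -0.00 over all genes tested.

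The intervals below come from the fit on group alone, so the gap between replicates of a group widens them. All 29 members with at least 5 CPM had a 95% interval of the fold change inside 2-fold in either direction, 22 had one inside 1.5-fold and 8 had one inside 1.25-fold. The median distance from estimate to interval bound was 0.40 on the log2 scale for these 29, against 0.30 for the 11595 genes of at least 5 CPM and 0.95 for the 43 tested members below 5 CPM. Estimates of the 29 ran from -0.25 to 0.20 on the log2 scale, and 22 of them (75.9%) lay within 0.1 of 0, against 82.9% of the 11595 genes. Kcnk16 had a log2 fold change of -0.02 (SE 0.20) with an interval of -0.53 to 0.49. Kcnma1 had a log2 fold change of 0.02 (SE 0.09), Kcnmb2 one of -0.02 (SE 0.09), Kcnip1 one of -0.06 (SE 0.09) and Kcnn3 one of -0.00 (SE 0.09). Kcnh2 and Kcnh1, whose replicates differed more, had 0.02 (SE 0.21) and -0.00 (SE 0.16).

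In 6 of the 72 members (8.33%) the lower insulin-depleted value exceeded the higher non-depleted value, against 10.2% of the 19721 genes tested other than the insulin genes. In 7 members (9.72%) the order was the opposite, against 9.33% of those genes. The members' shares were thus near the background in both directions. With at least 5 CPM, those above were Kcnj2, Kcnab3 and Kcng3 and those below were Kcnk3 and Kcnh8. Kcnj2 had the highest estimate of the 29, a log2 fold change of 0.20 (SE 0.12, 95% interval -0.10 to 0.51), and Kcnh8, an Elk channel, the lowest at -0.25 (SE 0.20). Kcnk3 had -0.12 (SE 0.09, 95% interval -0.35 to 0.11). Kcnj12 had -0.18 (SE 0.19), Kcng3 0.14 and Kcnab3 0.13 (SE 0.13). Kcnmb1, below 5 CPM, had the smallest unadjusted p of all members by edgeR, 0.115, with a log2 fold change of 0.42 (SE 0.22, 95% interval -0.14 to 0.98).

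**Figure D3:**
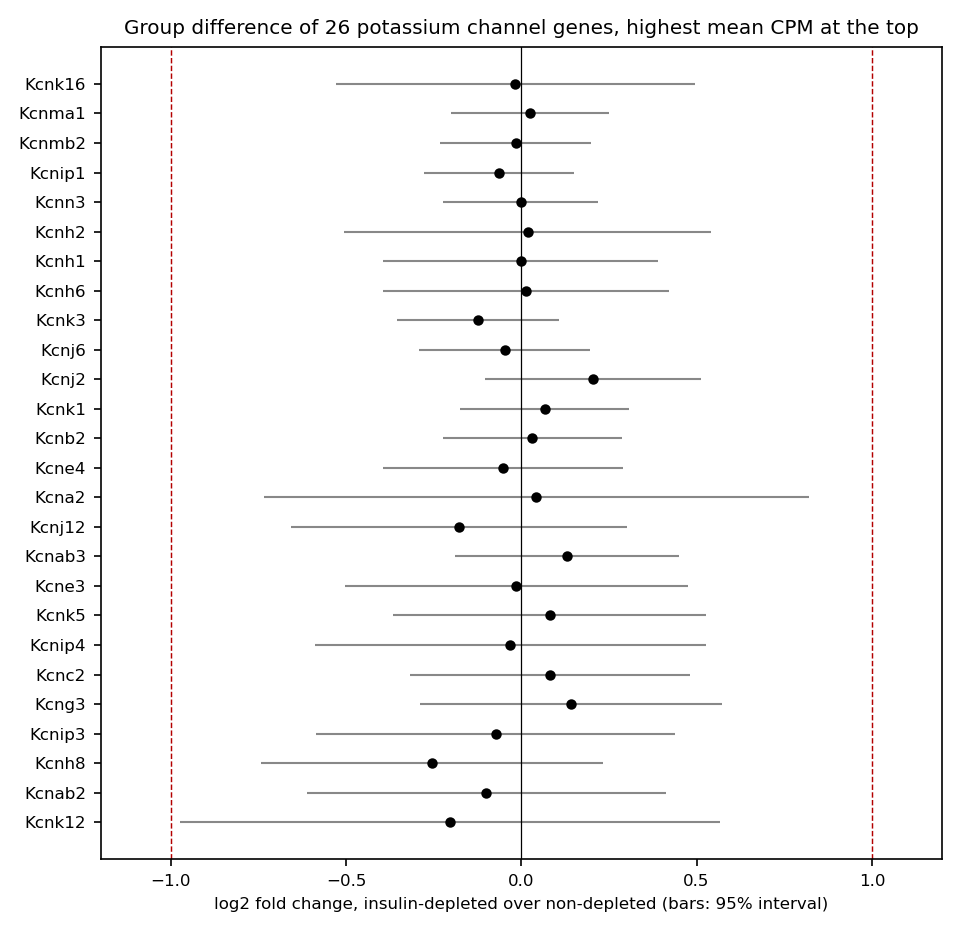
Log2 fold change, insulin-depleted over non-depleted, of 26 of the 29 potassium channel genes with at least 5 CPM on average, as points with 95% intervals from edgeR, with dashed lines at 2-fold in either direction. Every interval crosses 0, and the estimates run from -0.25 in Kcnh8 to 0.20 in Kcnj2.

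Replicate 1 and replicate 2 differed with the same sign in both groups for most members. Of the 29 members with at least 5 CPM, 19 (65.5%) were lower in replicate 1 than in replicate 2 in both groups, 6 were higher in both and 4 changed sign. Over the 11595 genes of that level 45.1% were lower in both and 34.6% higher in both. The members' median log2 ratio of replicate 1 over replicate 2 was -0.16, against -0.03 over those genes. Without the minimum of 5 CPM the members' median was -0.027, with 34 of 74 members lower and 24 higher in replicate 1 of both groups. Among pore-forming members 16 of 21 were lower in replicate 1 of both groups, against 3 of 8 auxiliary members.

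Kcnk16 had log2 ratios of replicate 1 over replicate 2 of -0.46 in insulin-depleted libraries and -0.50 in non-depleted libraries. Kcnh2 had -0.51 in insulin-depleted libraries and -0.47 in non-depleted libraries, and Kcnh6 had -0.37 in insulin-depleted libraries and -0.34 in non-depleted libraries. Wide gaps were also seen in Kcna2, with -0.41 in insulin-depleted libraries and -0.92 in non-depleted libraries, and in Kcnk12, a halothane-inhibited K2P gene, with -0.52 in insulin-depleted libraries and -0.72 in non-depleted libraries. The other way, Kcne4 had 0.20 in insulin-depleted libraries and 0.19 in non-depleted libraries, and Kcnab2, a Kv beta subunit, had 0.07 in insulin-depleted libraries and 0.32 in non-depleted libraries. For Kcnk16 the counting error alone, taken on halved counts, gave intervals of -0.54 to -0.37 in insulin-depleted libraries and -0.57 to -0.44 in non-depleted libraries, so its gap exceeded counting error in both groups. Since 33 of the 34 member values of 2 to 9 counts were even, counts were halved for these intervals, and they cover counting error only.

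Cell type markers differed with the replicate number too. The summed acinar markers were at 18521 and 7654 CPM in insulin-depleted libraries, against 18537 and 7632 CPM in non-depleted libraries, with all 20 of the 22 acinar markers that reached 5 CPM on average higher in replicate 1, and Amy2a3 at 0 in every library. Beta-cell markers summed to 20537 and 19820 CPM in insulin-depleted libraries, against 20839 and 19671 CPM in non-depleted libraries, and 5 of 12 were higher and 7 lower in replicate 1. Iapp made up most of each of these sums, and the median log2 ratio of the list was -0.09, opposite in direction to the sum. Delta- and gamma-cell markers in replicate 1 were 1.24 times those in replicate 2 in insulin-depleted libraries and 1.25 times in non-depleted libraries, but only 3 of the 8 were higher and 3 lower in both groups, with a median log2 ratio of -0.03. The gamma-cell hormone gene Ppy carried the sum, and Sst, the delta-cell hormone gene, stood at 532 and 658 CPM in insulin-depleted libraries, against 527 and 665 CPM in non-depleted libraries, lower in replicate 1. Alpha-cell markers in replicate 1 were 1.14 times those in replicate 2 in insulin-depleted libraries and 1.13 times in non-depleted libraries. Endothelial markers were 0.92 times in insulin-depleted libraries and 0.91 times in non-depleted libraries, with 12 of 13 lower in replicate 1. In the same order of groups, Schwann-cell and neuron markers were 1.16 and 1.15 times, with 7 of 10 higher and 2 lower. Stellate, pericyte and fibroblast markers were 1.05 and 1.06 times, with 8 of 11 higher and 2 lower. Ductal markers were 1.11 times in both groups, with 5 of 9 higher and 3 lower. Immune markers were 0.91 and 0.92 times, with 2 of 7 higher and 3 lower. These counts cover markers of at least 5 CPM on average. Of the 5 erythroid markers 1 reached 5 CPM, and no direction is given for that list. The part of cell makeup in the replicate gap of the potassium channel genes was not tested. In bulk RNA, fewer cells of a type and less RNA per cell cannot be told apart.

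**Figure D4:**
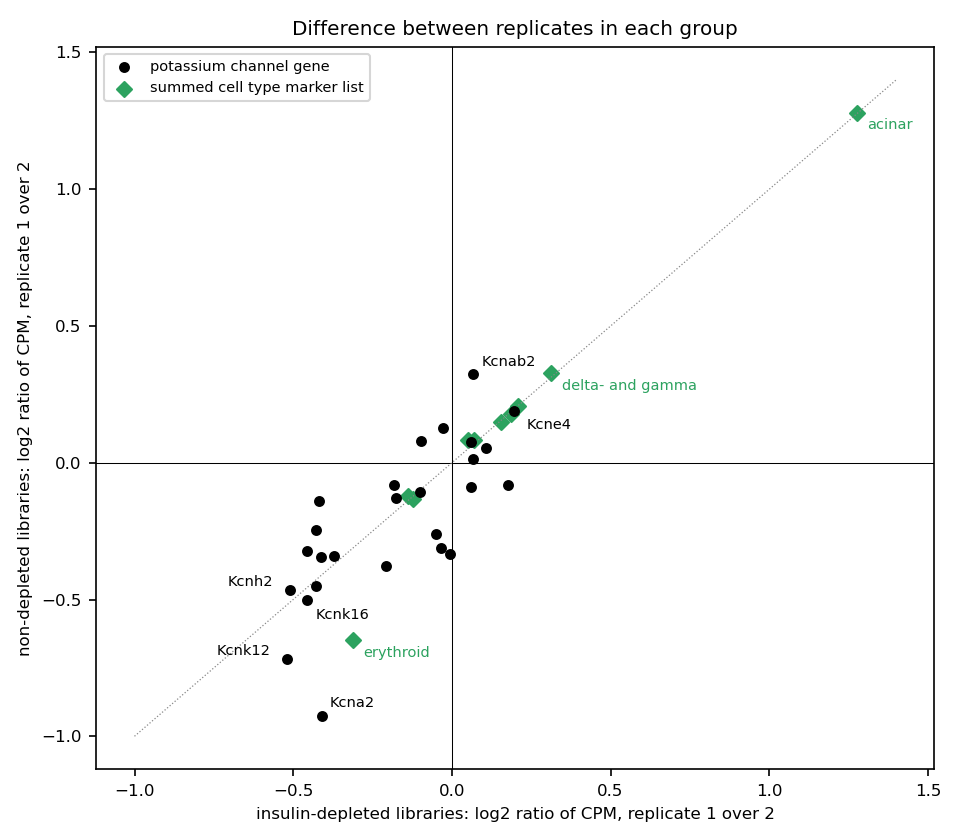
Log2 ratio of CPM, replicate 1 over replicate 2, in insulin-depleted libraries on the horizontal axis and in non-depleted libraries on the vertical axis, with 26 of the 29 potassium channel genes of at least 5 CPM as circles, summed cell type marker lists as diamonds and equal ratios along the dotted line. Kcnk16, Kcnh2, Kcna2 and Kcnk12 lie below 0 and Kcne4 above 0 in both groups, and the acinar markers lie farthest above 0.

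Genes that act with potassium channels were compared in the same fit. On the list of islet potassium channels known from textbooks, which overlaps the members, 21 of 22 genes were tested and 0 were called by edgeR in either direction, with 12 estimates above and 9 below 0 and a median log2 fold change of 0.01. On a list of partners without a Kcn symbol, 21 of 24 were tested and 0 were called, with 11 above and 10 below 0 and a median of 0.00. Abcc8, the sulfonylurea receptor of the ATP-sensitive channel, had 408 and 423 CPM in insulin-depleted libraries, against 386 and 424 CPM in non-depleted libraries, with a log2 fold change of 0.03 (SE 0.08). Amigo1, a membrane protein that accompanies voltage-gated channels, had 115 and 117 CPM in insulin-depleted libraries, against 121 and 115 CPM in non-depleted libraries. On a list of potassium pumps and cotransporters, 22 of 29 were tested and 0 were called, with 8 above and 14 below 0 and a median of -0.02.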

How the data were processed

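Bulk RNA sequencing of mouse islets gave 4 libraries, 2 insulin-depleted and 2 non-depleted. The authors deposited 1 table of whole-number gene counts with no normalization. An automated unit check read the word size in the deposited non-depleted headers, so those columns are listed under the unit of expected counts, although their values are whole numbers and were used as counts. Per the submitters' processing notes, cutadapt 4.8, STAR 2.7.11b and the builds GRCm38 and mm10 are listed, with no role stated. No source used here gives the counting program, its strand setting or its treatment of multiply mapped reads. Exons of 11 members overlap other genes over more than 10% of their length.

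CPM used library totals without Ins1 and Ins2, 19278430 and 64858544 in insulin-depleted libraries and 48510880 and 58127371 in non-depleted libraries. All 55536 identifiers matched GENCODE M21, which gave exon lengths, coordinates and coding sequences. The test was the quasi-likelihood test of edgeR 4.0.16 under R 4.3.3 (filterByExpr, TMM, estimateDisp, robust glmQLFit on group, glmQLFTest), with Benjamini-Hochberg adjustment over all genes tested and a threshold of 0.05. The biological coefficient of variation was 17.1%. The step was tested on simulated counts, drawn with a common dispersion for all genes and independently for each library. The simulation thus leaves out the correlation between same-numbered libraries. DESeq2 1.42.0 and limma-voom (limma 3.58.1) were alternatives, with other scalings, filters, halved counts, the replicate number as a block and each library left out. Exact permutation of 2 against 2 libraries cannot give a p below 0.333, so none was used.

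Genes named were the 15 members highest per kb, the first of each subfamily with at least 1 CPM, a list of textbook islet channels, the 3 smallest p in each direction and the 3 highest and lowest replicate ratios among members of at least 5 CPM, and the insulin genes; some members and partners are not reported here by name or drawn, but are included in counts and sums. Kcnmb1, members with 0 counts and the genes of other lists were named beyond that, after their values were seen. Members and lists were chosen with earlier results of these data known. Reads carried no stated molecular identifiers, so counting intervals and the 3-count limit cover counting error only.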

Additional observations from a re-analysis of the deposited data

How the results depend on the processing

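The count of 0 potassium channel genes called was the same under the replicate block, DESeq2, limma-voom, no TMM, RLE factors, all genes of at least 1 count, halved counts and each library left out (0 to 0). The count over all genes was 2, and 9 with the replicate block; the labels do not state that equal numbers share an animal, and deviations of same-numbered libraries correlated at 0.84 over 11595 genes. In that block fit 3 of 72 members, Kcnj2, Kcnmb1 and Kcnk3, had an unadjusted p under 0.05 by edgeR, so their intervals there leave out 0. Their adjusted p by edgeR were 0.947, 0.999 and 0.999. Of the 19721 genes other than the insulin genes, 359 were higher and 492 lower at that unadjusted p, a share like that of the members. The ratio of summed levels was 0.94 to 1.06 over all alternatives, 1.04 with the insulin genes in the totals. Of the 15 leading genes per kb, 14 were shared when the longest transcript was the length and 13 with no length. The median replicate ratio was -0.13 with TMM and -0.027 with no minimum of 5 CPM. Among 39 named genes the sign of the fold change turned in 0 to 6 under other fits and in 10 to 14 when 1 library was left out. Members below 5 CPM had wide intervals. Lengths assume the annotated exons, so levels per kb of genes with unused exons are understated.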
